A study of Mus musculus with 9 samples.

Results

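V5 is 1 of 10 clusters of visceral motor neurons (MNs) in the adult mouse spinal cord. Its members are the 618 nuclei that carry the label V5 among 5613 visceral nuclei, V1 to V10, and 16042 cholinergic nuclei in all. The labels came from the authors' clustering, and *Fras1* and *Reln* are the genes that mark V5. Nuclei came from 12 mice aged 8 weeks of Chat-IRES-Cre::Sun1-sfGFP stock. They carried both alleles over wild type, written Chat-iCre:+/wt and SUN-SfGFP:+/wt, so that any cell that had ever used the *Chat* driver kept a GFP-tagged nuclear envelope, and all groups shared this genotype with no treatment. The mice formed 3 pools of 4, replicate 1 with 2 males and 2 females, replicate 2 with only males and replicate 3 with only females. From each pool the cervical, thoracic and lumbar/sacral cord were taken apart, GFP+/DRAQ5+ nuclei were sorted, and single nucleus RNA sequencing gave 9 libraries, 3 per region, in which the 3 libraries of a replicate shared their mice.

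Visceral MNs are the preganglionic neurons of the autonomic nervous system. Their axons leave the cord and release acetylcholine onto autonomic ganglion cells, which in turn act on glands, smooth muscle and heart; sympathetic neurons sit mainly in the lateral horn of thoracic and upper lumbar cord, parasympathetic ones in sacral cord. *Fras1* (chromosome 5, 96373955 to 96784728, plus strand, GRCm38) encodes an extracellular matrix protein of basement membranes. *Reln* (chromosome 5, 21884454 to 22344702, minus strand) encodes reelin, a secreted glycoprotein that steers the placing of neurons, including preganglionic neurons, through the receptors *Vldlr* and *Lrp8* and the adaptor *Dab1*.

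Every level below is in CPM, the corrected counts of the V5 nuclei of a library summed and scaled to 1000000. Differences are on the log2(CPM + 5) scale, which understates the change of genes at low levels. Corrected counts are model values, and the molecules behind them are not known, so no interval for counting error is given for CPM.

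V5 nuclei were spread unevenly over the libraries. There were 198 in cervical 1, 5 in cervical 2 and 77 in cervical 3. Thoracic 1 held 15, thoracic 2 held 116 and thoracic 3 held 1, while lumbar/sacral 1, 2 and 3 held 103, 71 and 32. Levels were therefore measured in the 7 libraries with at least 10 V5 nuclei, which left cervical with 2 libraries and thoracic with 2. The values of thoracic 1 rest on the fewest nuclei.

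The labels of 2 libraries went against Hox genes, the homeobox genes whose use changes in steps along the body axis. These genes were read in skeletal MNs, which hold no V5 nuclei. Skeletal *Hoxc5* was at 16.1 and 15.6 CPM in cervical 1 and 3, and at 101 and 94.5 CPM in thoracic 1 and 3. The library labelled cervical 2 held 82.5 CPM and the library labelled thoracic 2 held 9.44 CPM. *Hoxa9* did the same, with at most 0.145 CPM in cervical 1 and 3, 11.9 and 15.8 CPM in thoracic 1 and 3, but 9.04 CPM in the library labelled cervical 2 and 0.629 CPM in the library labelled thoracic 2. Cholinergic interneurons showed the same pair of libraries on the other side, with *Hoxa9* at 21.7 and 0.516 CPM. No library was moved to another group. Of these 2 libraries, only the library labelled thoracic 2 has a V5 sum. The counts of the regional tests are given with and without it. The descriptions of clusters and markers and the comparison of pools include it. Median totals ran from 4712 to 16127 corrected counts over the cholinergic nuclei of a library, and from 4872 to 10441 over V5 nuclei of the 7 libraries. Scrublet called 7 V5 nuclei doublets (1.13%) and 164 of all cholinergic nuclei (1.02%); they stayed in. A barcode sequence shared with another library occurred in 3 V5 nuclei.

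The first comparison asked whether V5 has a regional distribution. V5 made up 18.4% of visceral nuclei in cervical 1 (95% Wilson interval 16.2 to 20.8), 1.19% in the library labelled cervical 2 (0.51 to 2.76) and 20.6% in cervical 3 (16.8 to 25.0). In thoracic 1 the share was 1.74% (1.06 to 2.85), in the library labelled thoracic 2 it was 28.9% (24.6 to 33.5), and in thoracic 3 it was 0.102% (0.018 to 0.576). The lumbar/sacral shares were 15.3% (12.8 to 18.2), 15.8% (12.7 to 19.4) and 8.49% (6.08 to 11.7). Within cervical and within thoracic tissue the libraries thus differed far beyond their counting error, and the odd library in each is the one whose Hox levels go against its label.

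By label, the share was 13.4% ± 10.6 (SD, n = 3) in cervical, 10.2% ± 16.1 (n = 3) in thoracic and 13.2% ± 4.08 (n = 3) in lumbar/sacral libraries. Lumbar/sacral libraries were 1.38 percentage points above the others, a difference smaller than the spread between libraries (two-sided exact permutation test over 84 groupings, p = 0.821, adjusted over the 2 comparisons p = 0.9). Cervical was 3.15 points above thoracic (exact permutation test over 20 groupings, p = 0.9, smallest possible p 0.1). Without the 2 libraries of replicate 2 labelled cervical and thoracic, the cervical excess was 18.6 points, but only 6 groupings are then possible and p cannot go below 0.333, the value obtained.

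**Figure D1:**
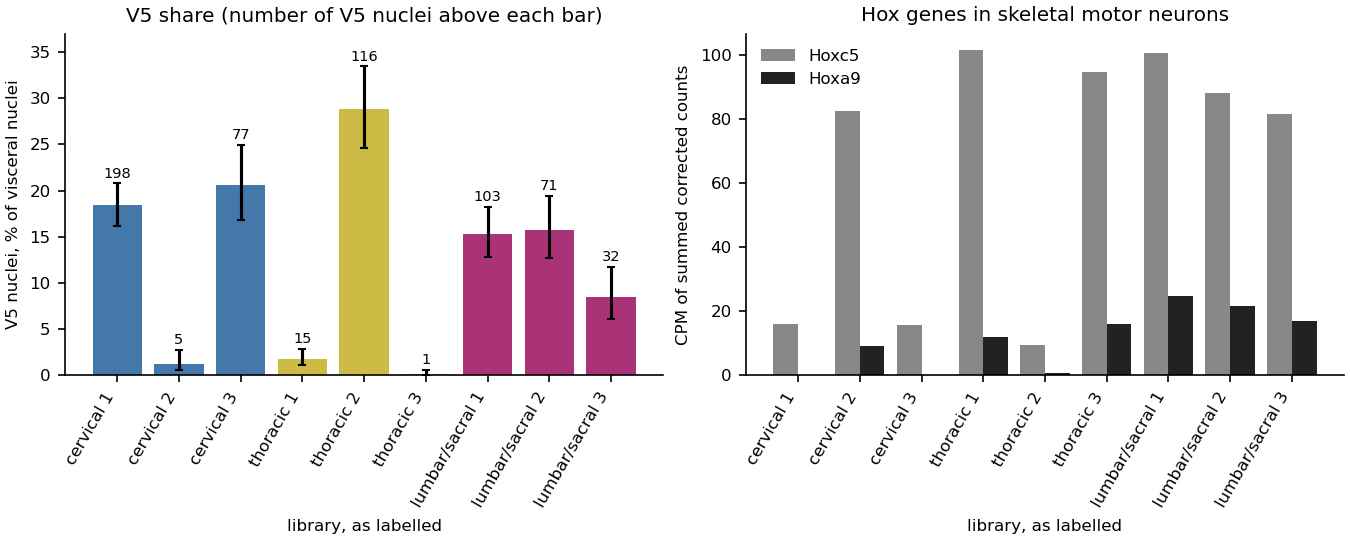
Left, V5 nuclei as a percentage of the visceral nuclei of each library, with 95% Wilson intervals (error bars) and the number of V5 nuclei above each bar; right, *Hoxc5* and *Hoxa9* in skeletal MNs of the same libraries, in CPM. V5 shares of 18.4 to 28.9% occur in the 3 libraries with *Hoxa9* under 1 CPM, shares of 0.102 to 1.74% in the 3 other cervical and thoracic libraries, and 8.49 to 15.8% in the lumbar/sacral libraries.

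The marker genes were checked in single nuclei. *Fras1* was found in 76.5% ± 6.6 of V5 nuclei (SD, n = 7 libraries) and *Reln* in 36.1% ± 5.7. In other visceral nuclei *Fras1* was found in 18.3% ± 7.2 and *Reln* in 18.8% ± 6.8, at a median total of 7569 against 7258.5 corrected counts in V5. Skeletal MNs, which serve as a background here, had *Fras1* in 12.4% ± 5.1 and *Reln* in 6.4% ± 2.1 of nuclei at a median total of 7393. *Fras1* thus marked most V5 nuclei in every library, from 67.6% in lumbar/sacral 2 to 86.7% in thoracic 1, whereas *Reln* was found in a minority in every library, from 29.8% in cervical 1 to 44.2% in cervical 3.

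Both genes together were detected in 173 of the 618 nuclei (28.0%), *Fras1* alone in 46.4%, *Reln* alone in 7.1% and neither in 18.4%. Over all libraries pooled, *Reln* was present in 37.6% of nuclei with *Fras1* and in 27.8% of those without it. The libraries differed in this. It was 33.3 to 48.4% against 0 to 34.8% in cervical 1, cervical 3, thoracic 1, thoracic 2 and lumbar/sacral 2. In lumbar/sacral 1 it was 41.9% against 41.4%, and in lumbar/sacral 3 it was 26.9% against 66.7%. Every nucleus was then thinned to 4600 corrected counts, which left out 41 V5 nuclei of lumbar/sacral 1 and 3. The share with both genes was 22.5% ± 3.57 after thinning and 28.9% ± 5.84 as deposited (means over 7 libraries). Thinning can only take detections away, and the 2 sets of nuclei are not the same, so the part of depth was not tested. *Zeb2*, a transcription factor the study used for visceral MNs as a class, was found in 49.9% ± 17.4 of V5 nuclei against 67.2% ± 24.4 of other visceral nuclei, and in 4.4% ± 1.0 of skeletal MNs. Within the 7 libraries, those of cervical and thoracic cord had *Zeb2* in 45.7 to 86.7% of V5 and 83.0 to 88.6% of other visceral nuclei. Those of lumbar/sacral cord had it in 32.0 to 50% and 35.8 to 45.9%.

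**Figure D2:**
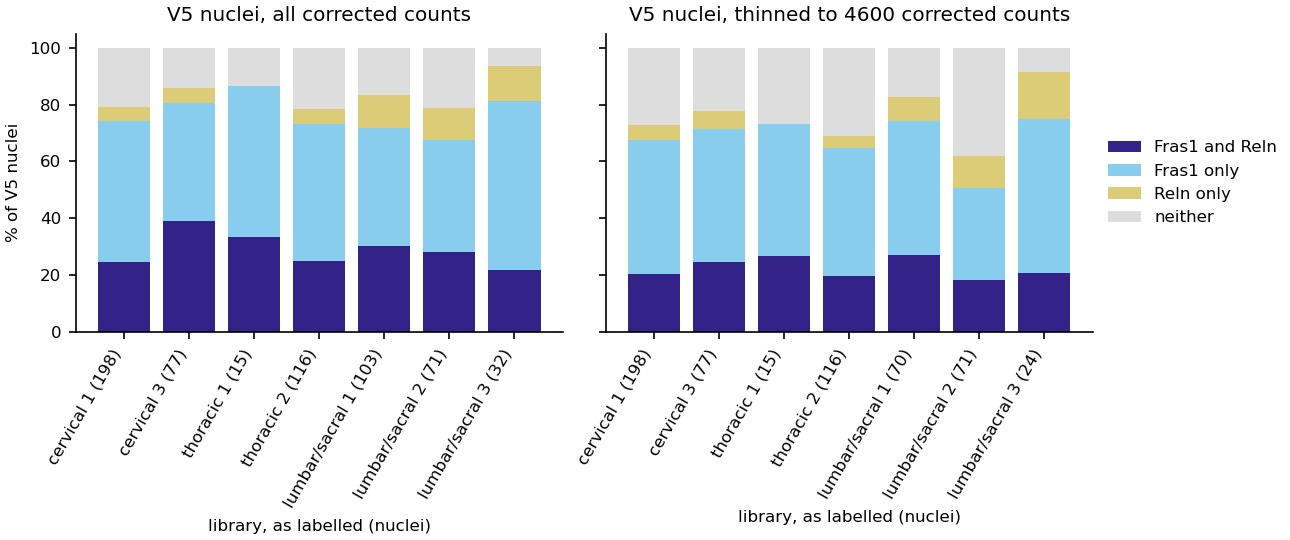
Percentage of V5 nuclei of each library with at least 1 corrected count of *Fras1*, *Reln*, both or neither, as deposited (left) and after thinning to 4600 corrected counts (right), with the number of nuclei in brackets. *Fras1* is the commoner marker in all 7 libraries, and nuclei with both genes make up 21.9 to 39.0% before thinning.

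The label V5 was checked against markers of visceral MNs and of other cells. *Chat*, which makes acetylcholine, was at 215 CPM ± 35.7 (SD, n = 7) and was found in 72.8% ± 10.3 of nuclei. *Fbn2*, a microfibril protein that the study used to mark visceral MNs, was found in 84.1% ± 16.6 of V5 nuclei against 11.1% ± 2.4 of skeletal MNs. *Tns1*, the study's skeletal marker, was in 27.5% ± 6.6 of V5 nuclei, against 16.7% ± 5.1 of other visceral nuclei and 92.7% ± 3.4 of skeletal MNs. The list of 10 skeletal markers summed to 876 to 1156 CPM in cervical and thoracic V5 sums and to 738 to 837 CPM in lumbar/sacral ones. The astrocyte list summed to 41.8 to 76.3 CPM in cervical and thoracic libraries and to 14.4 to 23.9 CPM in lumbar/sacral ones, nearly all of it *Slc4a4*, a bicarbonate transporter, while *Aqp4*, *Gfap* and *Slc1a3* did not exceed 2.05 CPM in any of the 7 libraries. The microglial genes *C1qb* and *Tmem119* and the mural gene *Vtn* were listed at 0 in all, and the oligodendrocyte list summed to 36.98 to 93.7 CPM and the microglial one to 0 to 76.1 CPM.

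What sets V5 apart from the other visceral clusters is given as a description, because the clusters were drawn from these same counts. In each library the V5 level was set against the mean of the other visceral clusters with at least 10 nuclei there. Of 10069 genes, 140 (1.39%) were higher in V5 in all 7 libraries with a median log2 difference of at least 1, and 55 (0.546%) were lower by the same rule. *Fras1* led, with 470 and 501 CPM in cervical 1 and 3, 286 CPM in thoracic 1, 405 CPM in thoracic 2 and 351, 221 and 463 CPM in the lumbar/sacral libraries. Its median log2 difference was 3.73 (3.37 to 4.17 over libraries). The regions overlapped in this gene. V10 held nearly as much *Fras1*, at a mean of 377 CPM over 5 libraries against 385 CPM in V5, and V7 held 0.87 CPM.

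*Etv1*, an ETS family transcription factor, came next (chromosome 12, 38779380 to 38870484, plus strand). It stood at 95.1 CPM ± 23.8 in V5 and at 54.3 CPM in V4, the next cluster, with a median log2 difference of 3.19. *Lgr5*, a receptor for R-spondins in Wnt signalling, stood at 98.4 CPM ± 28.2 against 88.9 CPM in V8, and its difference of 3.09 was 0.996 in the lowest library. *Agbl1*, a carboxypeptidase that trims glutamates from proteins, was at 178 CPM ± 113, with 322 and 324 CPM in cervical 1 and 3 and 50.9 to 194 CPM elsewhere. Among the 14 leading genes described were also *Ltbp1*, which holds latent TGF-beta in the matrix (median log2 difference 2.49), *Fndc1*, a protein with fibronectin repeats (2.44), and *Adamts3*, a procollagen protease (2.18). *Fndc1* was the only one of the 14 above the highest other visceral cluster in all 7 libraries, 145 CPM ± 29.6 against 86.4 CPM in V3.

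*Bdnf*, a neurotrophin, was at 69.3 CPM ± 23.4 in V5 and 70.5 CPM in V3, with at most 37.3 CPM in every other cluster. *Hpgds*, a prostaglandin D synthase, was at 216 CPM ± 136, below the 367 CPM of V1. *Shisa6*, an auxiliary subunit of AMPA receptors, was at 257 CPM ± 79.3 against 214 CPM in V2. *Reln* was at 169 CPM ± 45.5 in V5, below the 239 CPM ± 265 of V3, and its median difference was 2.17. V6 held 144 CPM ± 197 and V7 held 106 CPM ± 59.6. In the 7 libraries *Reln* was in 65.5 to 73.9% of lumbar/sacral V3 nuclei, but in 10.5 to 15.9% of cervical and thoracic ones. In V5 it was in 34.4 to 41.7% and 29.8 to 44.2%. The other leading genes were *Rmst*, a long noncoding RNA (2.47), *Dab2*, an endocytic adaptor (2.41), and *Clic5*, an intracellular chloride channel protein (2.41). Over all genes, 5 (0.0497%) were above the highest other visceral cluster in every library.

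On the low side, V5 had the lowest mean of all 10 visceral clusters for *Maml2*, a Notch co-activator (30.4 CPM against 619 CPM in V1), *Tmem132c*, a transmembrane protein (2.99 against 434 CPM in V8), *Syndig1*, a regulator of synapse formation (33.3 against 283 CPM in V6, with V3 level at 33.5 CPM), and *Gpr149*, an orphan receptor (84.1 against 654 CPM in V9). The other 4 of the 8 lowest were *Epha3*, an ephrin receptor, at a median log2 difference of -2.21, *Cdh12*, a cadherin, at -2.12, *Plxdc2*, a plexin domain protein, at -1.89 and *Tenm3*, a teneurin, at -1.80. *Tenm3* stood at 209 CPM ± 114 in V5 and at 1743 CPM in V7.

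**Figure D3:**
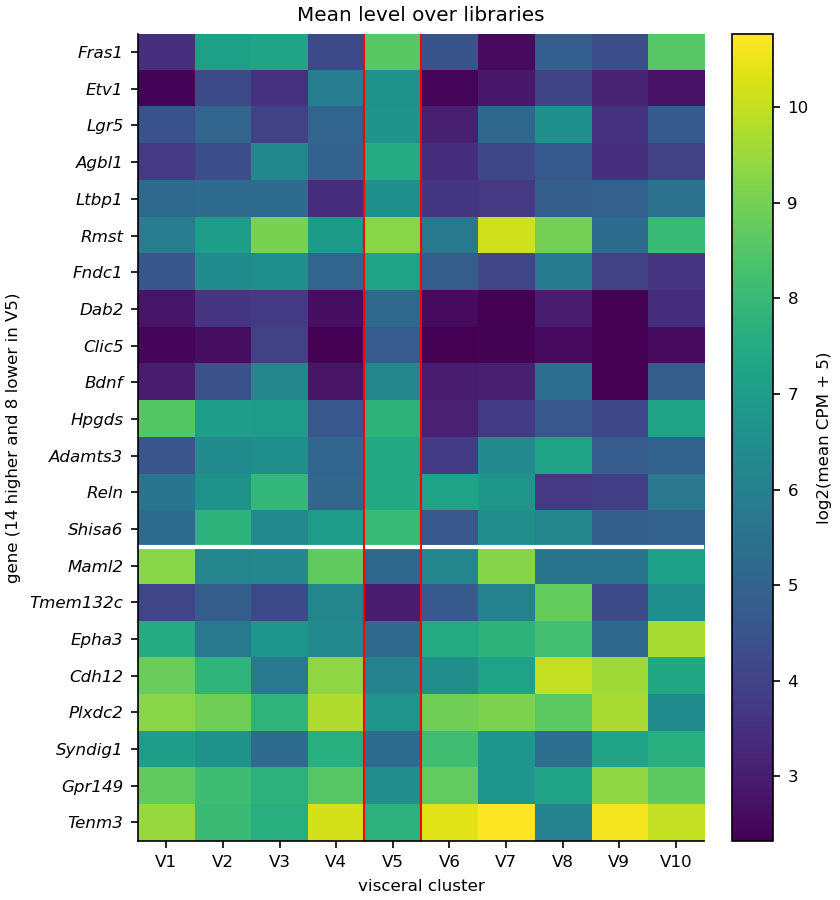
Mean level of 14 genes most above and the 8 genes most below the other visceral clusters in V5, as log2(mean CPM + 5) over the libraries with at least 10 nuclei, in each visceral cluster, V5 outlined in red. *Fras1* is high in V5 and V10 (385 and 377 CPM), and *Bdnf* is shared with V3. *Reln* stands at 169 CPM in V5 and at 239, 144 and 106 CPM in V3, V6 and V7. *Maml2*, *Tmem132c*, *Syndig1* and *Gpr149* are lowest in V5.

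Gene lists were read against the other visceral clusters by the same rule of all 7 libraries and a median log2 difference of at least 1, which 1.39% of all genes met as high and 0.546% as low. Among the 12 reelin pathway genes with a value, only *Reln* itself was high, while *Dab1* had a median difference of 0.12 and *Lrp8* of 0.34. In the complex of FRAS and FREM proteins, *Grip2*, a scaffold protein that helps to place it, was high (1.38), and *Frem3*, a sister matrix protein, was low (-1.18). Of 42 receptors for glutamate, GABA and glycine, 6 were high, among them the kainate subunit *Grik1* (1.98) and the GABA-A subunit *Gabrg3* (1.73), and 1 was low, the metabotropic receptor *Grm5* (-1.08). Of 42 potassium channel genes, 3 were high, *Kcnh7* (2.13), *Kcnk9* (1.38) and *Kcnmb2* (1.16). Of 14 HCN, TRP and Piezo channels, 3 were high, the mechanosensitive channel *Piezo2* (1.53) and the cation channels *Trpc5* (1.35) and *Trpc4* (1.20). Of 10 HOX cofactors 2 were high, *Tshz3* (1.89) and *Tshz1* (1.49), and of 3 motor neuron homeobox genes with a value 1 was high, *Foxp1* (1.25). Of 52 axon guidance genes 3 were high, *Ntng1* (1.501), *Unc5d* (1.42) and *Sema3d* (1.35), and 2 were low, *Epha3* and *Efna5* (-1.26). Of 25 cadherins 2 were high, *Cdh9* (1.75) and *Pcdh15* (1.12), and 3 were low, *Cdh12*, *Cdh18* (-1.15) and *Pcdh7* (-1.01). The median over all 10069 genes was 0.07.

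By the correlation of mean log2 levels over 11584 genes, V3 was the cluster most like V5 (r = 0.977), followed by V2 (0.971) and V4 (0.9502), and V8 was the least like among visceral clusters (0.918). These values carry no test, and the libraries were not the same for all clusters. Each cluster mean was taken over the libraries where that cluster had at least 10 nuclei. V8 had them only in the 3 lumbar/sacral libraries and V9 in none of those, so for them cluster and region cannot be told apart. Set against V3 alone, V5 held more *Etv1* (median log2 difference 3.11), *Ano1*, a calcium-activated chloride channel (2.96), *Dchs2*, a large cadherin (2.54), and *Tacr1*, the substance P receptor (2.30), in 7 of 7 libraries each. V3 held more *Kirrel3*, an adhesion molecule (-2.71), *Sema3e*, a secreted guidance cue (-2.61), and *Synpr*, a synaptic vesicle protein (-2.35). Against V2, *Rasgrf1*, a Ras activator (3.59), and *Serpine2*, a protease inhibitor (3.27), were higher in V5, and *Nox4*, an NADPH oxidase (-2.34), *Npy1r*, a neuropeptide Y receptor (-2.30), and *Isl1*, a motor neuron homeobox factor (-1.93), were lower.

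The main test asked which genes differ between V5 nuclei of lumbar/sacral cord and V5 nuclei of the other regions. With limma on the 7 library sums, 134 of 9716 genes passed at an adjusted p under 0.05 (1.38%), 62 (0.638%) higher and 72 (0.741%) lower in lumbar/sacral libraries, and 9 of them were predicted genes. In 132 of the 134 (1.36% of all genes) the 3 lumbar/sacral values lay outside the range of the 4 others, as did those of 10.9% of all genes tested. Over all genes the median log2 difference was 0.12. The same mice gave the 3 libraries of a pool, and with the pool as a replicate block 337 genes passed, 163 of them higher.

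*Erbb4*, a receptor tyrosine kinase for neuregulins, differed most (chromosome 1, 68032186 to 69108059, minus strand). It was at 31.4 CPM in both cervical 1 and cervical 3, at 127 CPM in thoracic 1 and at 27.3 CPM in thoracic 2, and at 3844, 2251 and 3173 CPM in lumbar/sacral 1, 2 and 3. The log2 difference was 5.95 ± 0.39 (SE, limma adjusted p = 9.77e-05). In single nuclei it was detected in 68.8 to 76.7% of lumbar/sacral V5 nuclei and in 11.1 to 33.3% of the others. In skeletal MNs of the same libraries the shares were 10.1 to 17.4% and 18.4 to 38.0%, and among cervical and thoracic libraries only thoracic 1 had a higher share in V5 (33.3%) than in skeletal MNs (18.4%). Other visceral clusters also held *Erbb4*: it was detected in 82.6 to 93.6% of lumbar/sacral V2 nuclei, in 65.5 to 79.3% of V3 and in 58.6 to 87.7% of V8, and in the same 4 cervical and thoracic libraries in 6.96 to 23.8% of V2 nuclei and 21.3 to 50.0% of V3.

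Transcription factors were among the genes that rose. *Ebf3*, a helix-loop-helix factor, was at 0 to 3.92 CPM in the 4 cervical and thoracic libraries and at 136, 123 and 105 CPM in the lumbar/sacral ones (log2 difference 4.29 ± 0.33, limma adjusted p = 0.000185). *Hoxa9* was listed at 0 in cervical 1, cervical 3 and thoracic 2, stood at 12.7 CPM in thoracic 1, and at 45.2, 45.7 and 93.7 CPM in the lumbar/sacral libraries (3.20 ± 0.50, adjusted p = 0.012). *Hoxd11* was listed at 0 in all 4 cervical and thoracic libraries and at 45.2, 49.7 and 29.3 CPM in the others (adjusted p = 0.00473). Genes were tested if they reached 10 CPM in 3 or more sums. *Ebf3* and *Hoxd11* did so only in lumbar/sacral libraries, so they entered the test only because they are high there. With any lumbar/sacral library left out, both fell below this filter. Only these 2 of 5 tested Hox genes passed, and the list's median log2 difference was 1.41; *Hoxc5* and *Hoxa7* followed the library more than the label, at 95.4 and 38.2 CPM in thoracic 1 but 28.2 and 4.87 CPM in thoracic 2.

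Acetylcholine receptors moved in opposite directions. *Chrm3*, the M3 muscarinic receptor that couples to Gq, was at 88.3, 83.7, 12.7 and 32.1 CPM in cervical 1, cervical 3, thoracic 1 and thoracic 2, and at 495, 378 and 375 CPM in the lumbar/sacral libraries (3.11 ± 0.26, limma adjusted p = 0.000313). *Chrm2*, the M2 receptor that couples to Gi, was at 322, 294, 172 and 185 CPM against 49.3, 71.6 and 64.4 CPM (-1.86 ± 0.19, adjusted p = 0.00141). Detection followed, with *Chrm2* in 61.2 to 84.4% of cervical and thoracic V5 nuclei and in 17.5 to 25.4% of lumbar/sacral ones, where *Chrm3* was in 46.9 to 57.7%. The third receptor gene with a test did not pass. Averaged over V1, V2, V3, V4 and V7, the regional difference was 1.96 for *Chrm3* and -1.54 for *Chrm2*. The limma test of V5 against these clusters called neither gene (adjusted p = 0.503 and 0.763). In the same 4 cervical and thoracic libraries V2 had *Chrm3* in 0 to 19.0% of nuclei and *Chrm2* in 66.7 to 95.2%. Lumbar/sacral V2 had them in 72.7 to 85.1% and 6.06 to 21.5%. In V7 *Chrm2* differed little (97.0 to 100% and 92.3 to 95.8%).

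Other genes that rose covered several roles. *Plce1*, a phospholipase C, was at 6.36 to 14.96 CPM against 197 to 329 CPM (4.13 ± 0.28, limma adjusted p = 9.77e-05). *Cdh23*, a long cadherin known from hair cells, was at 2.92 to 19.1 CPM against 93.7 to 208 CPM (3.58 ± 0.43), and *Prr16* was at 21.4 to 102 CPM against 281 to 528 CPM (2.97 ± 0.41). *Sulf1*, an enzyme that edits heparan sulfate, was listed at 0 in 3 of the 4 cervical and thoracic libraries and at 26.7 to 49.7 CPM in the lumbar/sacral ones (adjusted p = 0.00683). *Sulf1* too passed the filter only through the lumbar/sacral libraries. *Scube1*, a secreted surface protein, was at 0 to 29.2 CPM against 87.8 to 166 CPM (2.94 ± 0.54). *Cpa6*, an extracellular carboxypeptidase, and *Zfp804b*, a zinc finger protein, also passed (3.003 ± 0.54 and 2.95 ± 0.59), but thoracic 1 lay near the lumbar/sacral values in both.

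By the rule, 12 genes that fell in lumbar/sacral V5 nuclei are named. *Abtb2*, a BTB domain protein, was at 59.4 to 95.8 CPM against 5.86 to 7.95 CPM (-2.68 ± 0.29, limma adjusted p = 0.00167). *Kcnh1*, a voltage-gated potassium channel, was at 57.2 to 89.0 CPM against 0 to 11.9 CPM (-2.82 ± 0.42). *Car10*, a carbonic anhydrase related protein, was at 76.3 to 357 CPM against 23.4 to 57.7 CPM (-2.25 ± 0.34). *Unc13c*, which primes synaptic vesicles, was at 146 to 610 CPM against 47.7 to 135 CPM (-2.24 ± 0.39), and *Dlgap2*, a postsynaptic scaffold, was at 134 to 326 CPM against 45.2 to 58.6 CPM (-1.89 ± 0.21). *Shc3*, a neuronal signalling adaptor (-2.02 ± 0.24), *Col6a3*, a collagen (-2.07 ± 0.35), *Pcdh7*, a protocadherin (-1.93 ± 0.24), *Cdh20*, a cadherin (-2.90 ± 0.59), *Nox4*, an NADPH oxidase (-1.99 ± 0.37), and *Mme*, the peptidase neprilysin (-1.83 ± 0.35), completed the 12 with the largest falls. *Abtb2* and *Cdh20* reached 10 CPM only in cervical and thoracic libraries, so they entered the test only because they are high there.

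**Figure D4:**
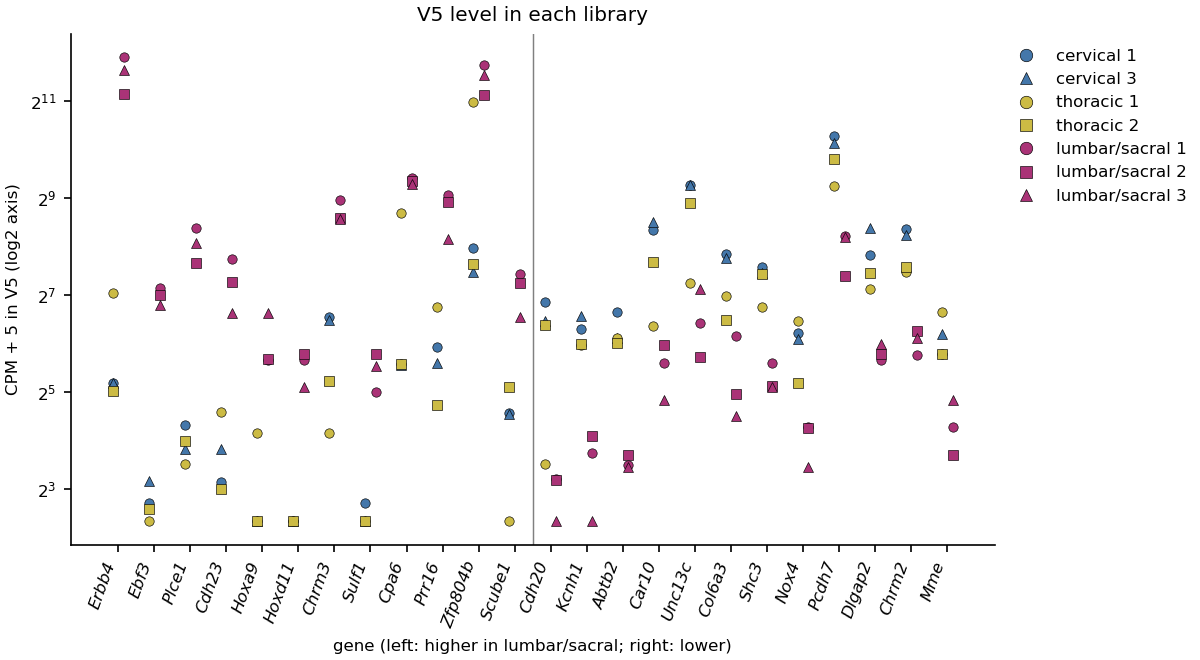
V5 level of the 24 named genes in each library, as CPM + 5 on a log2 axis, with colours for the region and shapes for the replicate as labelled. *Erbb4* runs from 27.3 to 127 CPM in cervical and thoracic libraries and from 2251 to 3844 CPM in lumbar/sacral ones, and thoracic 1 (yellow circles) approaches the lumbar/sacral values in *Zfp804b* and *Cpa6*.

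Single libraries carried much of the count. It was 233 without thoracic 1 and 372 without thoracic 2, but 36 without cervical 1, 33 without cervical 3 and 52, 32 and 47 without lumbar/sacral 1, 2 or 3. Of the 24 named genes, 9 kept their call with each of the 7 libraries left out, namely *Erbb4*, *Plce1*, *Cdh23*, *Chrm3*, *Abtb2*, *Shc3*, *Pcdh7*, *Dlgap2* and *Chrm2*, and 23 kept it without the library labelled thoracic 2 (*Cdh20* was then below the filter). Of these 9, *Abtb2* passed the filter only through the cervical and thoracic libraries.

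Gene lists were counted against the 1.38% of all genes that passed. Of 25 cadherins tested, 4 rose and 3 fell against a list median of 0.15. *Cdh8*, a classical cadherin, was at 60.3 to 121 CPM in cervical 1, cervical 3 and thoracic 2, at 560 CPM in thoracic 1 and at 935 to 1348 CPM in lumbar/sacral libraries (2.94 ± 0.55, limma adjusted p = 0.0292), *Cdh4* and *Cdh22* rose by log2 differences of 1.79 and 1.05, and *Cdh10* fell by 1.01. Of 41 potassium channel genes, 2 rose and 4 fell, with a median of 0.03. *Kcnk2*, a background potassium channel, was at 20.9 to 57.2 CPM against 136 to 262 CPM (2.45 ± 0.28, adjusted p = 0.0022), *Kcna4*, an A-type channel, rose by 2.01, and *Kcnc2*, *Kcnip1* and *Kcnma1* fell by 1.78, 0.99 and 0.86 on the log2 scale. Of 41 receptors for glutamate, GABA and glycine, none rose and 3 fell (median 0.07), *Gria1* (-1.39), *Grm5* (-1.14) and *Grin2b* (-0.98). Of 49 axon guidance genes, none rose and 3 fell (median -0.05), *Sema5a* (-2.13), *Unc5d* (-1.60) and *Nrp2* (-1.41).

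Among 8 monoamine receptors, *Htr7*, a serotonin receptor coupled to Gs, was the single call, at 18.5 to 57.2 CPM against 93.7 to 121 CPM (1.63 ± 0.33, limma adjusted p = 0.0412). Among 10 peptide receptors, *Rxfp2*, a relaxin family receptor, rose from 0 to 7.85 CPM to 25.9 to 41.0 CPM (2.02 ± 0.41, limma adjusted p = 0.0438). *Oprd1*, the delta opioid receptor, was listed at 0 in the 4 cervical and thoracic libraries and at 17.6 to 35.8 CPM in the others (limma adjusted p = 0.0271). *Rxfp2* and *Oprd1* reached 10 CPM only in lumbar/sacral libraries, so they entered the test only because they are high there. *Hcrtr2*, an orexin receptor, fell by 1.82 on the log2 scale (limma adjusted p = 0.0114). *Gucy1a1*, a subunit of the guanylyl cyclase that senses nitric oxide, rose by 1.88, while *Nos1*, which makes nitric oxide, was at 122 CPM ± 22.1 with no call (adjusted p = 0.674). None of 12 reelin pathway genes passed (median -0.18), and in the FRAS and FREM list 1 of 4 did, the scaffold *Grip1* (-1.39, adjusted p = 0.007). *Fras1* and *Reln* themselves did not pass (adjusted p = 0.674 and 0.834).

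Several marker lists moved with the lumbar/sacral libraries, and the depth did so in part. The cholinergic genes summed to 744 to 963 CPM in cervical and thoracic libraries and to 527 to 561 CPM in lumbar/sacral ones, and 1 of 4 tested fell, *Prph*, an intermediate filament protein (-1.79 ± 0.34, limma adjusted p = 0.0287). *Chat* did not pass (adjusted p = 0.811). The list of cholinergic interneuron markers summed to 43.8 to 64.1 CPM and 170 to 224 CPM, and of the latter *Ebf3* was 105 to 136 CPM; another member, *Pax2*, did not exceed 6.16 CPM. The inhibitory list summed to 0 to 31.4 CPM and 36.98 to 46.8 CPM, and the astrocyte list was lower in all 3 lumbar/sacral libraries than in the others. Of the 10 visceral markers 1 rose (*Cpa6*) and 3 fell (*Nox4*, *Mme*, *Hpgds*), and of the 10 skeletal markers 1 rose (*Rbfox3*) and 1 fell (*Nrp2*); the study chose these lists on the same nuclei, so they are no independent evidence of direction. Median totals of V5 nuclei were 4872 to 7369 in lumbar/sacral libraries and 6740.5 to 10441 in the other 4. Lumbar/sacral 2 (7369) lay above cervical 1 (6740.5). With every nucleus thinned to 4600 corrected counts 118 genes passed, 49 of them higher, and 21 of the 24 named genes kept their call. The part of these lists in the result was not tested.

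The 15 nuclei of thoracic 1 stood apart from those of cervical 1, cervical 3 and thoracic 2, in genes picked here after their values were seen. *Meis2*, a homeobox cofactor of HOX proteins, was found in 93.3% of them and in 2.6 to 9.1% of the V5 nuclei of those 3 libraries, against 31.2 to 41.7% in the lumbar/sacral ones. *Cpa6* was in 73.3% against 16.7 to 19.5% and *Zfp804b* in 86.7% against 43.1 to 47.5%. *Piezo2*, a mechanosensitive channel, was at 719 CPM against 38.0 to 82.4 CPM. *Ebf3* and *Hoxd11* were listed at 0 CPM there, so these nuclei held some of the genes of the lumbar/sacral V5 nuclei and not others. The first 2 genes were high in other visceral nuclei of the same library too. *Meis2* was in 89.4% of them in thoracic 1, 81.2% in thoracic 3 and 87.5% in cervical 2, against 42.0 to 51.5% in cervical 1, cervical 3 and thoracic 2, and *Cpa6* was in 39.7%, 35.7% and 42.4% against 12.6 to 16.5%.

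Cervical and thoracic V5 nuclei were compared next, with 2 libraries each. limma called 0 of 9716 genes (0.0%), and 466 had an unadjusted p under 0.05. Without the library labelled thoracic 2, whose Hox levels go against its label, 93 genes passed, 65 higher in cervical libraries; thoracic tissue is then represented by the 15 nuclei of thoracic 1, a lone sample assumed to vary like the others. No gene is named from this comparison.

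The regional difference in V5 was then set against that of other visceral clusters, V1, V2, V3, V4 and V7, which had at least 10 nuclei in all 7 libraries. limma found 90 of 10080 genes (0.893%) whose V5 value relative to these clusters differed by region, 50 (0.496%) higher and 40 (0.397%) lower in lumbar/sacral libraries. Of the 134 regional genes 41 (30.6%) were among them, which is 45.6% of the 90. *Erbb4* led again. In cervical 1, cervical 3, thoracic 1 and thoracic 2 its V5 level relative to the mean of the 5 clusters was -0.74, -1.14, 1.25 and -1.07 on the log2 scale, and in lumbar/sacral libraries it was 2.39, 2.87 and 2.73. The 5 clusters had a regional difference of their own of 2.86, and V5 exceeded it by 3.09 ± 0.37 (limma adjusted p = 0.000985). That mean joins unlike clusters: in V2 and V3 the share of nuclei with *Erbb4* also differed by region, as given above, while in V4 it was 9.09 to 30% and 10.3 to 23.9%. V5 was not tested against V2 or V3 alone.

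*Plce1* (2.57 ± 0.33), *Ebf3* (2.57 ± 0.40), *Cdh23* (2.55 ± 0.44) and *Prr16* (2.23 ± 0.34) also had a larger regional difference in V5 than the mean of the 5 clusters, which was 0.74 to 1.72. *Ebf3* fell below the filter with any lumbar/sacral library left out, so it entered this test too only because it is high there. Single clusters could come near V5: *Plce1* was detected in 0 to 4.76% of cervical and thoracic V2 nuclei and 43.9 to 55.3% of lumbar/sacral ones, against 6.67 to 9.09% and 53.1 to 66.0% in V5, and *Ebf3* was in 1.09 to 6.35% and 34.5 to 37.3% of V3 nuclei, against 0 to 3.90% and 34.4 to 47.9% in V5. *Angpt1*, a ligand of the receptor Tie2, was higher by 2.47 ± 0.29 (limma adjusted p = 0.000949), with a difference of 0.34 in the 5 clusters. *Col2a1*, a collagen, followed (2.40 ± 0.43), but its own regional difference in V5 did not pass (adjusted p = 0.0828; 0.00408 with the replicate block). *Meis2* was also higher by this measure (2.96 ± 0.58, adjusted p = 0.0232), yet thoracic 1 had the value of a lumbar/sacral library, -0.66 against -0.62, -0.44 and -0.93 there and -4.51 to -4.80 in the other 3.

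In the other direction stood several genes that are high in V5, *Reln* among them. It stood 2.00, 2.17, 2.98 and 2.12 log2 units above the 5 clusters in cervical and thoracic libraries and 0.74, 0.38 and 0.61 above them in lumbar/sacral ones (-1.74 ± 0.23, limma adjusted p = 0.00132). The regional difference of V5 itself was -0.16, without a call, and that of the 5 clusters was 1.58. *Lgr5* was alike, with 2.80 to 3.64 against 0.67 to 1.41 (-2.25 ± 0.28, limma adjusted p = 0.00119), and the 5 clusters had 1.58. These means join unlike clusters. In the 7 libraries *Reln* was in 4.43 to 19.0% of cervical and thoracic V2 nuclei and 38.3 to 40.9% of lumbar/sacral ones. In V3 it was in 10.5 to 15.9% and 65.5 to 73.9%, and in V1 in 4.8 to 23.7% and 7.69 to 17.4%. In V4 it was in 7.59 to 11.4% and 7.69 to 10.4%, and in V7 in 27.7 to 63.0% and 10 to 29.2%. *Alcam*, an adhesion molecule, was 1.61 to 2.43 above the clusters in cervical and thoracic libraries and at -0.56 to -0.15 relative to them in lumbar/sacral ones (-2.43 ± 0.22, adjusted p = 0.000171). *Fat3*, a large cadherin (-1.87 ± 0.24), *Unc13c* (-1.93 ± 0.34), *C1ql3*, a secreted synaptic protein (-2.38 ± 0.50), *Runx2*, a transcription factor (-1.73 ± 0.38), and *Syndig1* (-1.70 ± 0.31) made up the 8 with the lowest values. *C1ql3* reached 10 CPM in V5 only in cervical 1, thoracic 1 and thoracic 2, and entered this test only because it is high there. *Fras1* had no such call (adjusted p = 0.701), and stood at least 3.33 log2 units above the 5 clusters in every library.

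**Figure D5:**
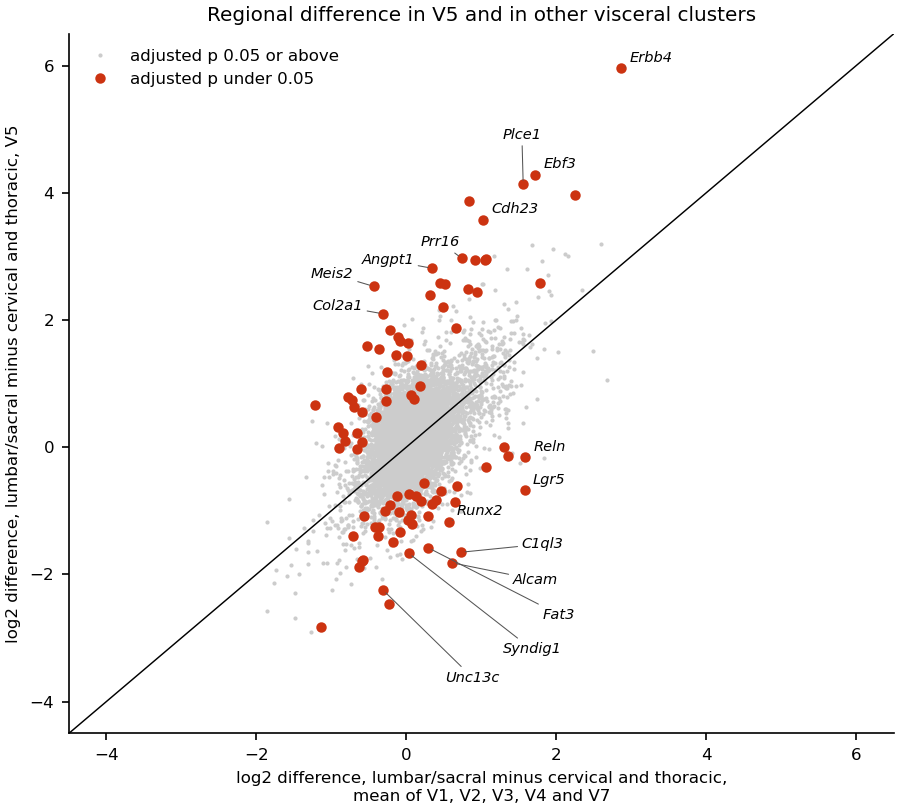
For each gene tested, the log2 difference of lumbar/sacral against cervical and thoracic libraries in V5 (vertical axis) and averaged over V1, V2, V3, V4 and V7 (horizontal axis); the line marks equal differences, and red points are the 90 genes whose 2 differences differed at an adjusted p under 0.05. *Erbb4* lies above the line by 3.09, and *Reln* and *Lgr5* lie below it near a V5 difference of 0, at -0.16 and -0.67.

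Across the gene lists, beside 0.893% of all genes, this test called 4 of 25 cadherins, all higher (*Cdh23*, *Cdh8* at 1.89, *Cdh9* at 1.44 and *Cdh13* at 0.66), and 4 of 42 potassium channel genes, with *Kcnd3* higher (0.995) and *Kcnh1*, *Kcnab1* and *Kcnc2* lower (-1.69, -1.29 and -1.20). Of 51 guidance genes *Robo2* was higher (0.87), and *Epha3*, *Dcc* and *Plxna4* were lower (-1.50, -1.22 and -0.81). The calcium channel subunits *Cacna2d3* and *Cacnb2* were lower (-1.38 and -1.17), 2 of 28 tested, and *Htr7* was higher (1.60, adjusted p = 0.00506), 1 of 8 monoamine receptors. Of 42 receptors for glutamate, GABA and glycine 2 were higher, *Glra2* (1.13) and *Grik2* (0.68), and 2 lower, *Gria1* (-1.01) and *Grik4* (-0.77), and of 19 collagens 2 were higher, *Col2a1* and *Col5a1* (1.88). The count was 52 without cervical 1, 41 without cervical 3, 29 without lumbar/sacral 1, 40 without lumbar/sacral 2, 197 without thoracic 1 and 212 without thoracic 2; of the 16 named genes 7 kept their call with each of the 7 libraries left out (*Alcam*, *Angpt1*, *Erbb4*, *Fat3*, *Lgr5*, *Plce1* and *Reln*). With no filter on low values only *Alcam* of the 16 kept its call, and 9 did with pseudocount 1.

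The pool of males was compared with the pool of females last, so that sex and pool cannot be told apart. In a fit over the 7 libraries with a term for region, limma called 5 of 9716 genes (0.0515%), 4 higher (0.0412%) and 1 lower (0.0103%) in the male pool, and 911 had an unadjusted p under 0.05. All 5 were sex-linked. *Xist*, the RNA that silences an X chromosome, was listed at 0 in thoracic 2 and lumbar/sacral 2, which are male. It reached 528 CPM in cervical 3 and 638 CPM in lumbar/sacral 3, which are female, and 178 to 303 CPM in the mixed pool. *Uty*, on chromosome Y, reached 149 and 167 CPM in the male libraries against 1.31 and 0 CPM in the female ones (4.74 ± 0.41, limma adjusted p = 9.67e-05), and *Eif2s3y*, *Kdm5d* and *Ddx3y* were alike. Nuclear and mitochondrial RNA, mostly *Malat1*, summed to 136589 and 157254 CPM in the male libraries and to 49761 and 95988 CPM in the female ones, and its part in the result was not tested. The count rose to 115 without lumbar/sacral 2, and was 9, 15, 32 and 17 without cervical 1, cervical 3, lumbar/sacral 1 or thoracic 1, and 3 without lumbar/sacral 3.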

How the data were processed

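Single nucleus libraries (10x Genomics 3′ chemistry) were aligned by the authors to GRCm38 with introns counted (Cell Ranger 3.1.0) and normalized with SCTransform in Seurat. The deposited values are a score: corrected counts, whole numbers made by a model, of 21457 features in 16042 nuclei. They are not raw counts, so count models were not used. The authors' annotation, deposited beside them, gave library and cluster.

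V5 nuclei were summed per library (at least 10 nuclei), scaled to 1000000, and tested with limma 3.58.1 (R 4.3.3, trend, Benjamini-Hochberg adjusted p under 0.05) on log2(CPM + 5), keeping genes that reached 10 CPM in 3 or more sums. Regional comparisons had no block. The planned comparison of male and female pools left no residual degrees of freedom, and all 7 libraries were fitted instead. The numbers pair the samples because same-numbered libraries came from the same mice. Their deviations in V5 correlated at 0.104 to 0.375, which is no independent support: 2 libraries per region mirror each other, and pairs of unlike number reached 0.154. Replicates are pools, and the p-values of the regional comparisons measure the spread between pools. Neither sex had a replicate pool. The p-values between the male and female pools therefore measure the spread left between regional libraries, which share mice within a pool. They do not measure the spread between pools of the same sex. Shares were tested by exact permutation over libraries. Wilson intervals cover counting error only.

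Genes named were the 15 highest (1 is not reported here) and 8 lowest against other visceral clusters, the 12 highest and 12 lowest called regional genes without overlap, the 8 and 8 largest called regional differences relative to other clusters, called genes between pools, and up to 6 members per gene list. Members and lists were chosen with earlier results of these data known, and some lists were the study's own. Gene positions are those of GENCODE vM21. Other calculations used Python 3.11.15, scanpy 1.11.5 (Scrublet) and scipy 1.17.1. The alternatives were another scaling, pseudocount, filter and level per library, thinning, doublets removed, the block, and each library or replicate left out.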

Additional observations from a re-analysis of the deposited data

Results flagged for a closer look

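For 16 genes the regional difference, lumbar/sacral against cervical and thoracic libraries, differed between V5 and 5 other visceral clusters by the test of the difference itself (limma, adjusted p under 0.05). The V5 difference exceeded that of the others by 3.09 for *Erbb4*, 2.96 for *Meis2*, 2.57 for *Plce1*, 2.57 for *Ebf3*, 2.55 for *Cdh23*, 2.47 for *Angpt1*, 2.40 for *Col2a1* and 2.23 for *Prr16*, on the log2 scale. It was lower, at -2.43 for *Alcam*, -2.38 for *C1ql3*, -2.25 for *Lgr5*, -1.93 for *Unc13c*, -1.87 for *Fat3*, -1.74 for *Reln*, -1.73 for *Runx2* and -1.70 for *Syndig1*. *Ebf3* and *C1ql3* passed the filter only through libraries of the side where they are high. Groups of 3 libraries were too small to look for single outlying samples.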

How the results depend on the processing

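The regional count in V5 was 134 genes and moved by over 1.5 times with the replicate block (337) and with libraries or replicates left out (9 to 372); the lowest was without replicate 3 and the highest without thoracic 2. With the block, 0 genes passed between cervical and thoracic V5 nuclei and 130 in the difference from other clusters, and the 24 regional and 16 difference genes named kept those calls. Of the 16, *Col2a1*, *Meis2* and *Runx2* gained a regional call with the block (adjusted p = 0.00408, 0.0215 and 0.0448, from 0.0828, 0.344 and 0.514). The count of 0 between cervical and thoracic became up to 94 with a replicate or library left out (0 to 94). The count of 90 genes whose regional difference differed from that of other clusters was 56 with at least 10 corrected counts in every sum, 3 with no filter, 49 with pseudocount 1, 253 against the sum of all other visceral nuclei, and 16 to 212 with a library or replicate left out. *Glra2* reversed against that sum (-0.22, from 1.13). The 5 genes between pools became 0 with at least 10 corrected counts in every sum, 3 with no term for region, 3 after thinning, and 3 to 115 with a library left out. The lumbar/sacral excess in V5 share became -0.20 points of all cholinergic nuclei, and -0.96 to 4.79 points with a library or replicate left out. Counted over visceral nuclei without V8 it was 7.11 points (exact permutation test, p = 0.369). The cervical excess over thoracic ranged from -5.51 to 18.6 points. With region permuted within replicates, p was 0.852 and 1. After thinning, *Fras1* was in 68.2% and *Reln* in 30.0025% of V5 nuclei, and both in 22.5%. The 140 genes above other visceral clusters became 230 with pseudocount 1 and 0 against the highest other cluster, where *Rmst* (-0.98) and *Hpgds* (-0.70) reversed. The cause of these changes was not tested.

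Depth limits these values: lumbar/sacral 1 and 3 had the lowest median totals, thoracic 1 rests on 15 nuclei, and 2 libraries had too few V5 nuclei for any level. Of the 24 named regional genes 24 kept their call with another scaling, with means over nuclei, with pseudocount 20 and without doublets, and 17 with pseudocount 1. With at least 10 corrected counts in every sum, 16 of the 24 were below the filter and 8 kept their call. Of the 16 named for their difference from other clusters, 1 (*Alcam*) kept its call with no filter, 9 with pseudocount 1, 11 after thinning, 13 against the sum of all other visceral nuclei and 14 with cervical and thoracic libraries as 1 group. Where leaving out 1 library left a region with 1 library, that library was assumed to vary like the others. Cervical and thoracic libraries as 1 group (117 genes), thinning of the sums and the share without the replicate 2 libraries were chosen after seeing the data.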
